A study of Mus musculus with 4 samples.

Results

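The genes described here are 41 regulators of actin filament turnover and of the attachment of filaments to membranes and adhesions, read in C2C12 myoblasts after knockdown of *Hnrnpl*. They were taken as a list by gene symbol and cover the cofilins, profilins, β-thymosins, the Arp2/3 complex, capping proteins, the ERM proteins, filamins, α-actinins, Ena/VASP proteins, talin, vinculin and zyxin. All 41 were found among the 56748 gene IDs of the files, and 38 had enough reads to be tested. C2C12 is an established mouse myoblast line, labelled WT in both groups and kept as growing myoblasts. The scrambled group carried a control shRNA and the knockdown group a mixture of 3 shRNAs against *Hnrnpl*, each from a plasmid with an eGFP reporter, and both groups were selected with puromycin. There were 2 direct RNA nanopore libraries per group, with 1 of each group in each of 2 batches. Both libraries of a group were passages of 1 selected stable line. The p-values of the main fit, which has no batch block, therefore measure the spread between passages and batches together. The treatment and the line cannot be told apart.

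Actin filaments grow at their barbed ends and are lost from their pointed ends. Cofilins sever and depolymerize old filaments, profilin and the β-thymosins hold the pool of monomers, the Arp2/3 complex starts branches, and capping, elongating and crosslinking proteins set the length and arrangement of filaments. In myoblasts these proteins are known for their part in cell shape, migration and the membrane protrusions that precede fusion, and hnRNP L is an RNA-binding protein of the nucleus known for binding CA-rich sequence and for splicing.

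The libraries held between 1229424 and 1676911 reads counted on genes, and the 41 genes took between 1.63% and 1.78% of them. Reads that fell on more than 1 gene were set aside by the counting and made up between 16.0% and 16.5% of each library. *Hnrnpl* itself was read 358 and 656 times in the scrambled libraries and 242 and 258 times in the knockdown libraries. In edgeR, *Hnrnpl* fell by 0.78 log2 units, with a standard error (SE) of 0.18 and a Benjamini-Hochberg adjusted p of 0.0112. The change was -0.48 without scrambled 2 (adjusted p = 0.194) and -0.62 without knockdown 1 (adjusted p = 0.150). In every fit that left out a library, here and for the genes described next, 1 group was a single library, the spread came from the other group alone, and the lone library was assumed to vary like that group. Of the myoblast markers, *Des* had 373 and 571 reads under scrambled shRNA against 309 and 242 after knockdown. *Myf5* had between 113 and 190 reads and *Vcam1* between 13 and 20, while *Cdh15* had 113 and 152 reads under scrambled shRNA against 25 and 14 after knockdown, and *Myod1* had at most 1 read. Of 7 markers of differentiated muscle, *Acta1* had 7 to 16 reads and the others at most 3, and the markers of fibroblasts, macrophages, endothelium and epithelium had at most 10 reads in any library.

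Of the 38 genes tested, 5 were called at an adjusted p under 0.05, a log2 fold change over 0.5 in either direction and a mean normalized count over 10. *Tmsb4x*, *Twf2*, *Cotl1* and *Cfl1* fell, and *Arpc4* rose. Among all 8670 genes tested, 5.55% were called, 2.33% higher and 3.22% lower in knockdown. The share among the members was 13.2%. The members were chosen with earlier results of these data known, so this share and those below were not tested against all genes. Calls were more frequent at higher counts, with 7.93% of genes called above a mean of 50 normalized counts, and 34 of the 38 members, the 5 called ones included, lay above that mean. An adjusted p under 0.05 with no demand on the fold was reached by 6 members, against 5.95% of all genes. An unadjusted p under 0.05 was reached by 12 of the 38 (31.6%), 5 higher and 7 lower, against 21.8% of all genes. The 2 groups were fully apart in normalized counts for 23 of the 38 (60.5%), against 52.4% of all genes. The median log2 fold change of the 38 was -0.05, and 17 were above 0 and 21 below it, where the median of all genes was -0.00059. Members were called in both directions. The authors' own comparison used the Wald test of DESeq2 with a local fit. Refitted here at the same thresholds, it called 2 members, *Cfl1* and *Arpc4*, and 228 of 8507 genes.

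**Figure D1:**
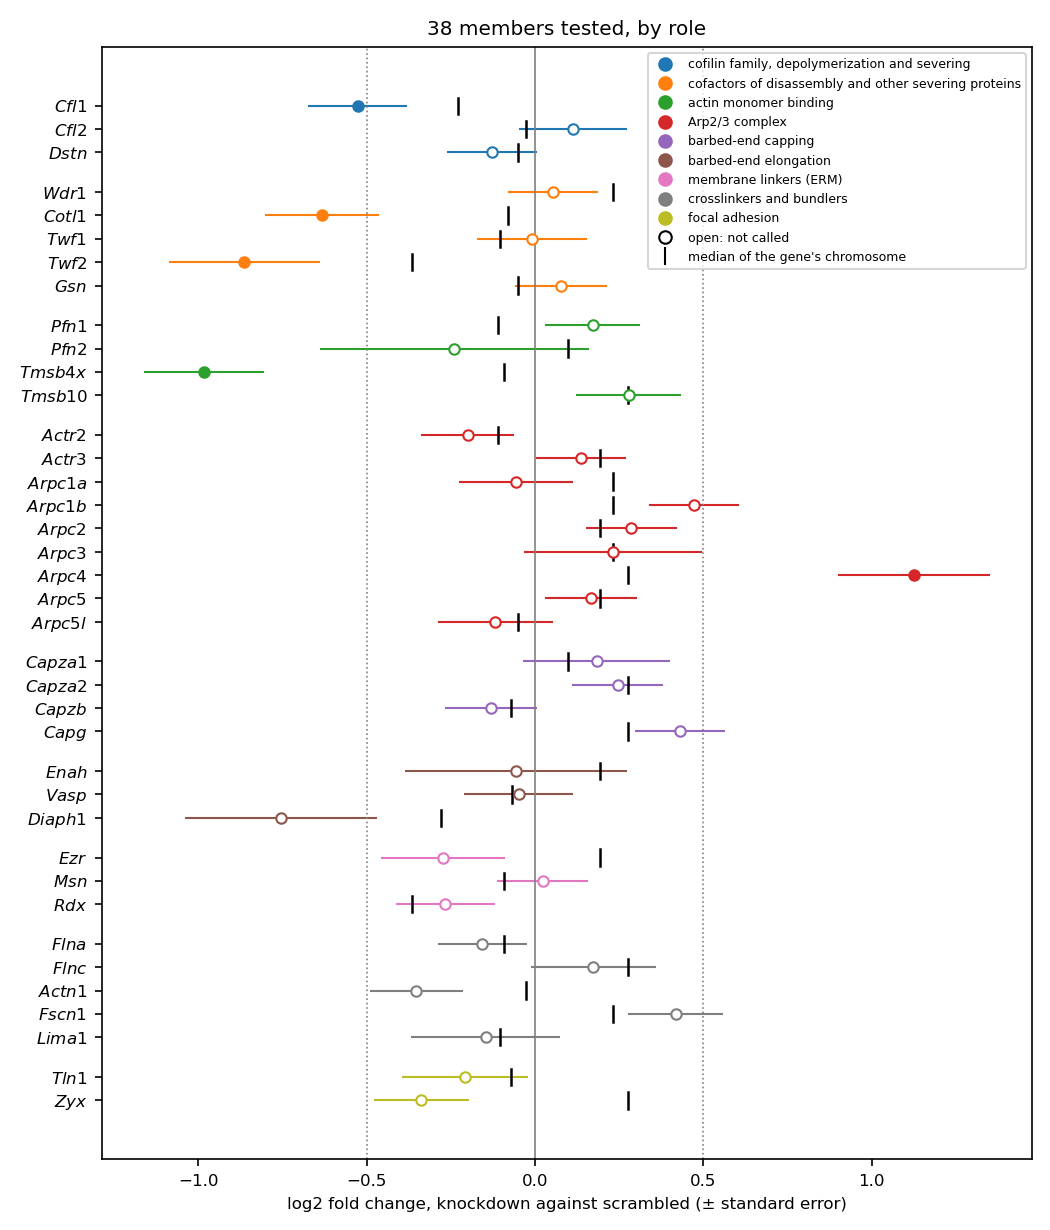
Log2 fold change of each of the 38 members tested, knockdown against scrambled, with its standard error, coloured by role. Filled points are called, dotted lines mark 0.5 in either direction, and the black tick is the median of all tested genes on the same chromosome. *Tmsb4x* lies at -0.98 and *Arpc4* at 1.13, the ends of the range.

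The median change differed between chromosomes. Among the autosomes and X, the median log2 fold change of the genes of a chromosome ran from -0.37 on chromosome 9 to 0.30 on chromosome 16. It was 0.37 for the 10 mitochondrially encoded genes tested and -0.61 for the 1 gene tested on Y. Of the 18 members on chromosomes with a median over 0, 13 were above 0 (72.2%), against 74.4% of all genes tested on such chromosomes. Of the 20 on chromosomes with a median under 0, 16 were below 0 (80%), against 65.7% of all genes there. With the chromosome median subtracted from each member, 15 were above 0 and 23 below. When the chromosome medians were entered into the fit, 3 members were called, of which *Tmsb4x* and *Arpc4* were also called without this step. The third was *Zyx*. The chromosome medians are therefore given beside the members, and their part in the changes of the members was not tested.

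**Figure D2:**
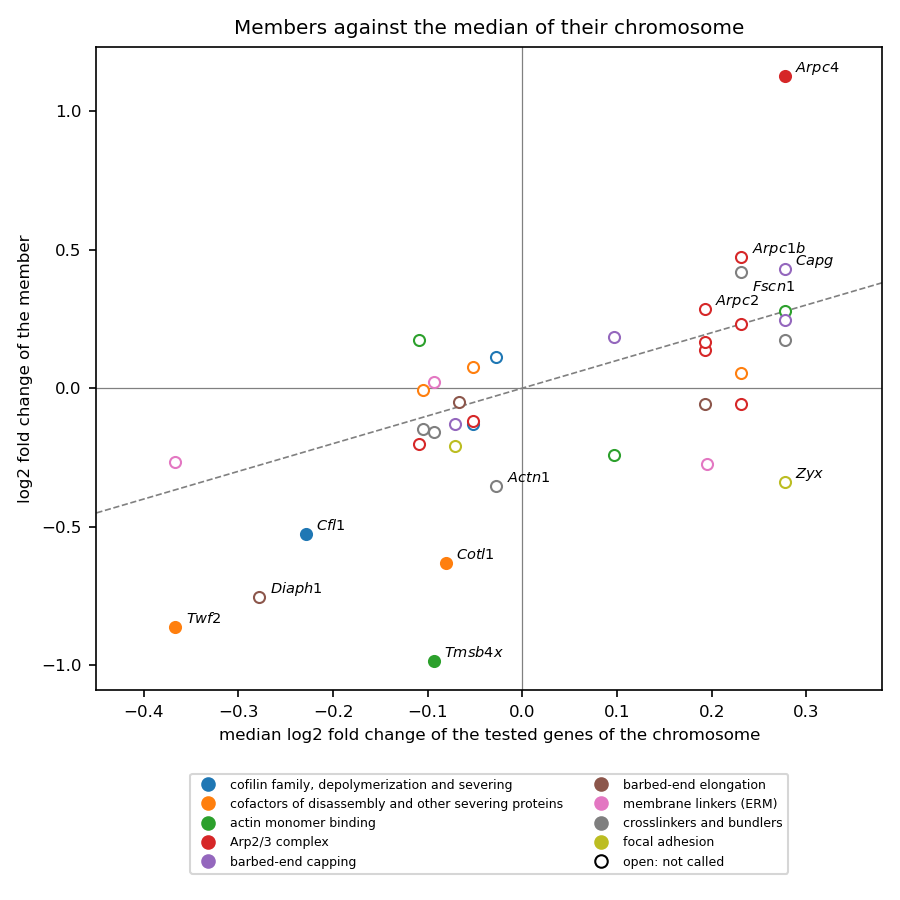
Log2 fold change of each member (y axis) against the median log2 fold change of all tested genes on its chromosome (x axis), coloured by role as labelled. The dashed line marks equal values, filled points are called, and names are given at an unadjusted p under 0.05. *Tmsb4x*, *Zyx* and *Cotl1* lie furthest below the dashed line, at -0.89, -0.62 and -0.55 from it, and *Arpc4* furthest above, at 0.85. *Twf2* (-0.50), *Diaph1* (-0.48) and *Ezr* (-0.47) follow *Cotl1*.

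The cofilin family severs and depolymerizes actin filaments, and 1 of its 3 members fell. *Cfl1* (ENSMUSG00000056201.9, chr19:5540483-5545229, forward strand, GRCm39), the non-muscle cofilin, was read 5025 and 5701 times in the scrambled libraries (1 and 2) and 3809 and 2726 times in the knockdown libraries. After scaling to a common library size, the scrambled mean was 5033 ± 329 (SD, n = 2) and the knockdown mean 3493 ± 431 (SD, n = 2), and both knockdown libraries were below both scrambled libraries. *Cfl1* fell by 0.53 log2 units (SE 0.15, adjusted p = 0.0391), on a chromosome whose median was -0.23. In bulk RNA, less RNA per cell and fewer cells that hold it cannot be told apart. With the batch as a block the adjusted p was 0.0750. Removing the chromosome medians left a change of -0.30 (adjusted p = 0.361). Without scrambled 1, scrambled 2 or knockdown 2 the change was -0.46, -0.60 or -0.41 and the adjusted p 0.200, 0.0654 or 0.102, and without knockdown 1 it was -0.66 (adjusted p = 0.0215). *Cfl1* passed both fits of DESeq2, with an adjusted p of 0.00203 in the local and 0.0351 in the parametric fit, and was the only member called in the latter. Of the last 500 bases of the *Cfl1* transcript, 70.8% lie opposite an exon of *Snx32*, and whether the counting used strand is not stated.

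*Cfl2*, the cofilin of muscle, had 305, 290, 327 and 240 reads in scrambled 1, scrambled 2, knockdown 1 and knockdown 2, and its log2 fold change was 0.11 (SE 0.16, adjusted p = 0.729). *Dstn*, which encodes destrin, a depolymerizing protein of the same family, had 1085, 1219, 972 and 864 reads and a log2 fold change of -0.13 (SE 0.13, adjusted p = 0.629). When each library was left out, the change of *Dstn* ran from -0.21 without scrambled 2 to -0.054 without scrambled 1. The groups overlapped for *Cfl2* and not for *Dstn*. Neither was called. The share of *Cfl1* among reads of the 3 genes does not depend on library scaling. It was 78.3% and 79.1% in the scrambled libraries, with 95% exact Clopper-Pearson intervals that began at 77.3% and 78.1%, and 74.6% and 71.2% in the knockdown libraries, with intervals that ended at 75.8% and 72.6%. Both shares in knockdown were lower, with a difference between the means of -5.83 percentage points, and those of *Cfl2* and *Dstn* were higher by 1.95 and 3.88 points. The intervals of knockdown 1 and 2 began at 73.4% and 69.7% and did not meet each other. Such intervals cover counting error only, and 2 libraries against 2 cannot give an exact permutation p under 0.333.

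**Figure D3:**
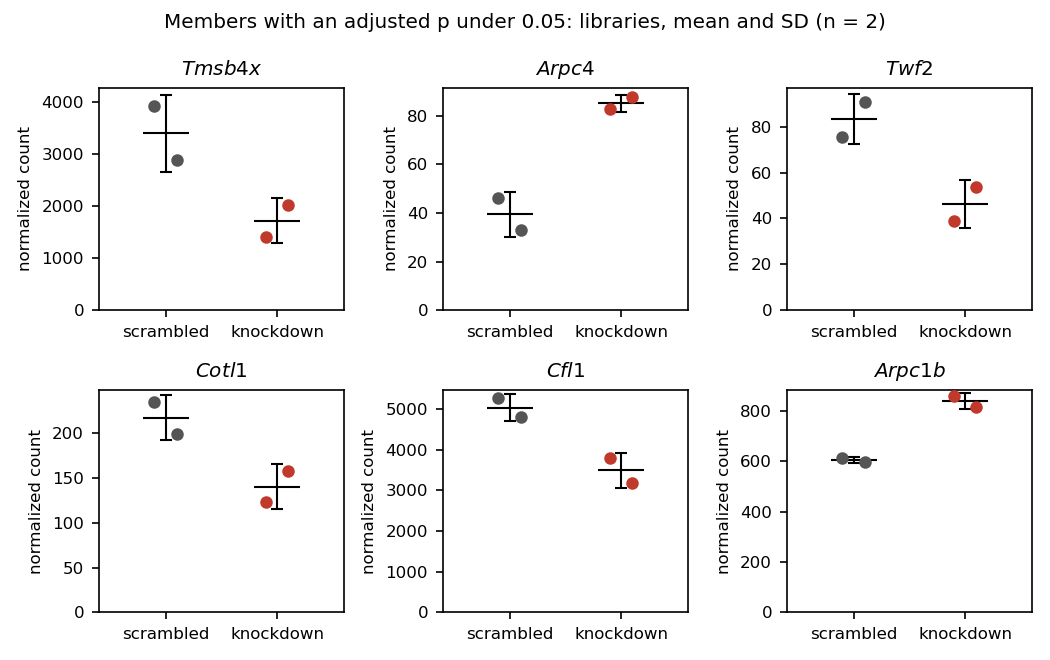
Normalized counts of the 6 members with an adjusted p under 0.05, with 1 point per library and the mean and SD of each group (n = 2), each y axis starting at 0. In all 6 the points of the groups do not overlap, with *Arpc4* and *Arpc1b* higher in knockdown and the other 4 lower.

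Of the genes grouped here as cofactors of disassembly, severing proteins and other actin-binding proteins, 2 of 5 tested fell. *Cotl1* (ENSMUSG00000031827.14, chr8:120535961-120567323, reverse strand) encodes coactosin-like protein, a small filament-binding protein of the cofilin fold. It was read 224 and 237 times in the scrambled libraries (1 and 2) and 123 and 135 times in the knockdown libraries. The normalized counts were 217 ± 24.9 (SD, n = 2) and 140 ± 24.9 (SD, n = 2), with no overlap between groups. *Cotl1* fell by 0.63 log2 units (SE 0.17, adjusted p = 0.0328), on a chromosome with a median of -0.08. The adjusted p was 0.106 and 0.356 in DESeq2 with the local and parametric fits and 0.0863 with the chromosome medians removed. Without scrambled 1 or knockdown 1 the change was -0.52 or -0.45 and the adjusted p 0.161 or 0.261, and without scrambled 2 or knockdown 2 it was -0.76 or -0.82 (adjusted p = 0.0165 or 0.0208).

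*Twf2* (ENSMUSG00000023277.14, chr9:106080245-106092592, forward strand) encodes twinfilin-2, which binds monomers and the barbed end and works with capping protein. It was read 72 and 108 times in the scrambled libraries (1 and 2) and 39 and 46 times in the knockdown libraries, which made 83.2 ± 10.9 (SD, n = 2) and 46.3 ± 10.5 (SD, n = 2) normalized counts, without overlap. *Twf2* fell by 0.86 log2 units (SE 0.22, adjusted p = 0.0274), on chromosome 9. The median of chromosome 9, -0.37, was the lowest among the autosomes and X. With the chromosome medians removed the change was -0.50 (adjusted p = 0.306). In DESeq2 with the local and parametric fits the adjusted p was 0.169 and 0.485, and without scrambled 2 or knockdown 1 the change was -0.72 or -0.64 (adjusted p = 0.150 or 0.229). Without scrambled 1 or knockdown 2 it was -0.98 or -1.10 (adjusted p = 0.00729 or 0.0200). Its paralogue *Twf1* had 175, 175, 162 and 142 reads and a log2 fold change of -0.01 (SE 0.16, adjusted p = 0.987). The share of *Twf2* among twinfilin reads was 29.1% (95% interval 23.6 to 35.2) and 38.2% (32.5 to 44.1) in the scrambled libraries, against 19.4% (14.2 to 25.6) and 24.5% (18.5 to 31.3). The shares of the 2 groups did not overlap, and the interval of scrambled 1 overlapped those of both knockdown libraries.

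The other members of this role were not called. *Wdr1*, which encodes the cofilin cofactor AIP1, had 510 to 720 reads per library, *Gsn*, the severing and capping protein gelsolin, had 366 to 510, and their log2 fold changes were 0.05 and 0.08. *Cap1*, the cyclase-associated protein that recycles cofilin-bound monomers, had 10, 7, 5 and 7 reads and was not tested. An exon of *Ppt1* lies opposite 26.4% of the last 500 bases of *Cap1*.

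The monomer-binding proteins held the member with the largest fall. *Tmsb4x* (ENSMUSG00000049775.17, chrX:165990089-165992311, reverse strand) encodes thymosin β4, which sequesters actin monomers. It was read 3747 and 3425 times in the scrambled libraries (1 and 2) and 1416 and 1738 times in the knockdown libraries. Scaled, these were 3926 and 2884 against 1412 and 2033 normalized counts, so the groups were apart although the libraries within each group also differed. The means were 3405 ± 737 (SD, n = 2) and 1722 ± 439 (SD, n = 2), and *Tmsb4x* fell by 0.98 log2 units (SE 0.18, adjusted p = 0.00222), on a chromosome with a median of -0.09. The log2 ratio was -1.48 in batch 1 and -0.50 in batch 2. With the chromosome medians removed the change was -0.89 (adjusted p = 0.00575). When each library was left out in turn it lay between -1.27 and -0.74 with an adjusted p of at most 0.0364, from 1 library against 2, while the local and parametric fits of DESeq2 gave an adjusted p of 0.108 and 0.177.

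*Tmsb10* (chr6:72934330-72935737, reverse strand) encodes thymosin β10, the other β-thymosin of the list. It was read 400 and 624 times in the scrambled libraries (1 and 2) and 502 and 555 times in the knockdown libraries. Its log2 fold change was 0.28 (SE 0.16, adjusted p = 0.313), where the chromosome median was 0.28, and the groups overlapped. It ranged from 0.079 without knockdown 2 and 0.13 without scrambled 1 to 0.45 without scrambled 2 and 0.46 without knockdown 1. The paralogues are short and close in sequence, so the coding sequences of their CCDS transcripts in GENCODE vM39 are shown, 135 bases each with the stop codon, 5′ to 3′, with the 40 positions at which they differ in capitals. The other 95 positions are the same.
Tmsb4x: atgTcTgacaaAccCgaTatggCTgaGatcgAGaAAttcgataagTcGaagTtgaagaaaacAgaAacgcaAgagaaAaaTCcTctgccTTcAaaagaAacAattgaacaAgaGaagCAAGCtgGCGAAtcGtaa
Tmsb10: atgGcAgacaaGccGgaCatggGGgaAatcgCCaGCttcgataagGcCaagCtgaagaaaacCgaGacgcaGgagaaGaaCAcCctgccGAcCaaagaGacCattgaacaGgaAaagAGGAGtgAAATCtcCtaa
The differences are spread along the whole coding sequence, and the last 800 bases of either transcript, or all of it where shorter, mapped to its own gene at the highest mapping quality, 60. *Tmsb10* made up 9.65% (95% interval 8.76 to 10.6) and 15.4% (14.3 to 16.6) of β-thymosin reads in the scrambled libraries, against 26.2% (24.2 to 28.2) and 24.2% (22.5 to 26.0). The share was thus higher in both knockdown libraries, by 12.7 percentage points between the means, and the intervals of the groups did not meet. Those of the 2 scrambled libraries did not meet each other either, so the spread within a group exceeded counting error.

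The profilins deliver monomers to growing ends. *Pfn1*, the widely expressed profilin, had 4166, 5385, 4814 and 4471 reads in the order scrambled 1, scrambled 2, knockdown 1, knockdown 2. Its log2 fold change was 0.17 (SE 0.14, adjusted p = 0.516), and its normalized counts, 4365 and 4534 against 4800 and 5229, did not overlap. *Pfn2*, known mainly from neurons, had 18, 16, 12 and 13 reads and a log2 fold change of -0.24 (SE 0.40, adjusted p = 0.778). When each library was left out, the change of *Pfn2* ran from -0.49 without scrambled 2 to -0.00059 without scrambled 1. Exons of 2 genes, *1700029K24Rik* and *Rnf167*, lie opposite 55.8% of the last 500 bases of *Pfn1*. The summed normalized counts of the 4 monomer-binding genes were 8729 and 7956 with scrambled shRNA, against 6724 and 7927 with *Hnrnpl* shRNA.

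**Figure D4:**
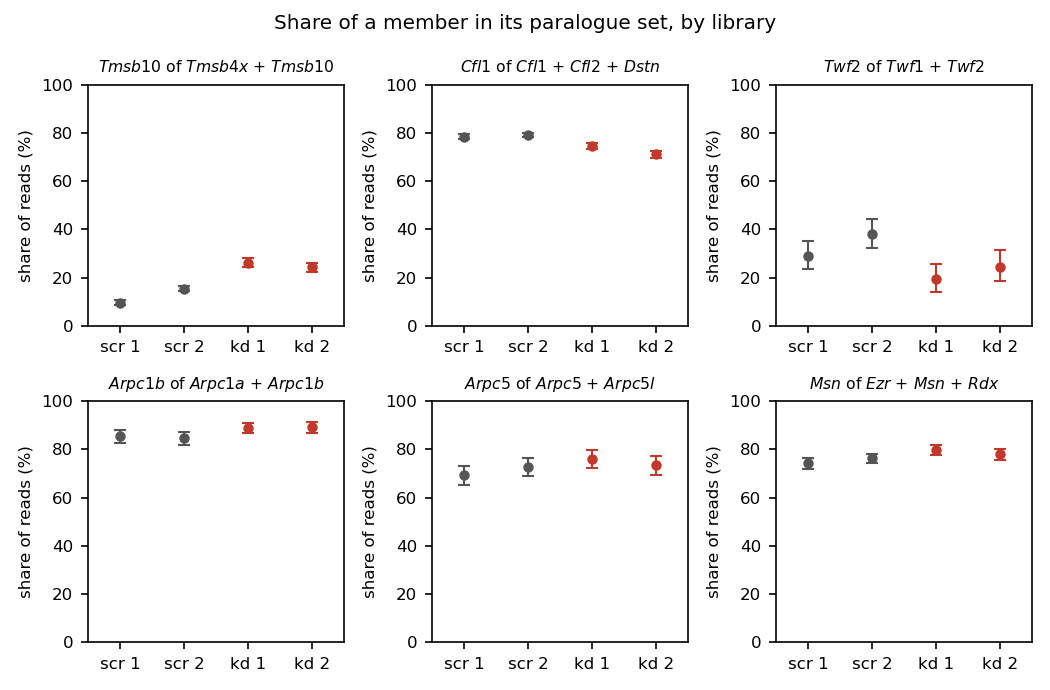
Share of reads (y axis, percent) of 1 member within its paralogue set in scrambled 1 and 2 (scr) and knockdown 1 and 2 (kd), with 95% exact binomial intervals for counting error. *Tmsb10* lies at 9.65% and 15.4% in scr 1 and 2, against 26.2% and 24.2%, and *Arpc1b* at 85.4% and 84.6%, against 89.0% and 89.3%.

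The Arp2/3 complex nucleates branched filaments, and of its 9 genes, all tested, 1 rose and none fell. *Arpc4* (ENSMUSG00000079426.14, chr6:113355059-113367409, forward strand) encodes a core subunit. It was read 44 and 39 times in the scrambled libraries (1 and 2) and 83 and 75 times in the knockdown libraries. The normalized counts were 39.5 ± 9.38 (SD, n = 2) and 85.2 ± 3.51 (SD, n = 2), well apart. *Arpc4* rose by 1.13 log2 units (SE 0.23, adjusted p = 0.00506), on a chromosome with a median of 0.28. With the chromosome medians removed the change was 0.85 (adjusted p = 0.0431). Without 1 library at a time it lay between 0.87 and 1.37 with an adjusted p of at most 0.0495, again from 1 library against 2, and DESeq2 with the parametric fit gave an adjusted p of 0.176. *Arpc4* shares 12.4% of its transcript with exons of *Ttll3*, its neighbour on the same strand, and 4.85% with exons on the other strand.

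*Arpc1b*, 1 of the 2 WD-repeat subunits, was read 586 and 708 times in the scrambled libraries (1 and 2) and 864 and 699 times in the knockdown libraries. Scaled, this was 605 ± 12.7 (SD, n = 2) and 840 ± 31.0 (SD, n = 2), without overlap. Its log2 fold change of 0.47 (SE 0.13, adjusted p = 0.0410) passed the test and stayed under the threshold on the fold. The median of chromosome 5, which holds it, was 0.23. The change was 0.47 with the batch as a block (adjusted p = 0.0854) and 0.47 in DESeq2 with the parametric fit (adjusted p = 0.192). With the chromosome medians removed it was 0.24 (adjusted p = 0.437). Without scrambled 1, scrambled 2, knockdown 1 or knockdown 2 the adjusted p was 0.153, 0.247, 0.160 or 0.0589. *Arpc1a*, its paralogue and neighbour on the same chromosome, had 100, 129, 107 and 84 reads and a log2 fold change of -0.06 (SE 0.17, adjusted p = 0.882). The share of *Arpc1b* in the pair was 85.4% (95% interval 82.6 to 88.0) and 84.6% (82.0 to 87.0) in the scrambled libraries, against 89.0% (86.8 to 90.9) and 89.3% (86.9 to 91.4). The intervals of the shares overlapped between groups, and the difference between the changes of the 2 genes was not tested.

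*Arpc2*, a core subunit, had 678, 817, 808 and 770 reads and a log2 fold change of 0.29 (SE 0.14, unadjusted p = 0.0472, adjusted p = 0.222 in edgeR), where the chromosome median was 0.19. *Arpc5* had 369, 439, 419 and 368 reads and a log2 fold change of 0.17 (SE 0.14, adjusted p = 0.522). *Arpc5l*, its paralogue, had 163, 165, 131 and 132 reads and a log2 fold change of -0.12 (SE 0.17, adjusted p = 0.737), and all of its last 500 bases lie opposite an exon of *Golga1*. None of these was called. The share of *Arpc5* in the pair was 69.4% and 72.7% in the scrambled libraries, against 76.2% and 73.6%, with intervals that overlapped. The remaining subunits, *Actr2*, *Actr3* and *Arpc3*, had log2 fold changes from -0.20 to 0.23. Over the complex, the summed normalized counts were 3139 and 3062 with scrambled shRNA, against 3506 and 3648, higher by 15.4% between the means. Of the 9 genes, 7 lie on chromosomes with a median over 0. The median log2 fold change of all 9 was 0.17, and with the chromosome medians subtracted it was -0.03.

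The capping proteins stop growth at barbed ends, and none of the 4 was called. *Capg*, a capping protein of the gelsolin family, had 558, 654, 747 and 671 reads, or 568 ± 24.1 (SD, n = 2) and 765 ± 28.3 (SD, n = 2) normalized counts. Its log2 fold change was 0.43 (SE 0.13, unadjusted p = 0.00461, adjusted p = 0.0628 in edgeR), where the chromosome median was 0.28. The groups did not overlap. *Capza1*, *Capza2* and *Capzb*, the subunits of the capping heterodimer, had log2 fold changes of 0.18, 0.25 and -0.13. The summed normalized counts of the 4 genes were 1590 and 1503 with scrambled shRNA, against 1791 and 1784.

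Of the 3 elongation factors none was called, and all 3 log2 fold changes were below 0. *Diaph1*, a formin that elongates unbranched filaments, was read 36 and 68 times in the scrambled libraries (1 and 2) and 30 and 23 times in the knockdown libraries. Its log2 fold change was -0.75 (SE 0.29, unadjusted p = 0.0161, adjusted p = 0.125 in edgeR), where the chromosome median was -0.28. The change was -1.0 without scrambled 1 (adjusted p = 0.0411) and -0.41 without scrambled 2 (adjusted p = 0.641). The normalized counts did not overlap, at 37.7 and 57.3 against 29.9 and 26.9, and the scrambled libraries lay further apart than the lower of them from either knockdown library. The Ena/VASP proteins shield barbed ends from capping. *Enah* had 26, 30, 31 and 16 reads and *Vasp* 130, 174, 133 and 121, with log2 fold changes of -0.06 and -0.05.

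The ERM proteins tie filaments to the plasma membrane, and none of the 3 was called. With all libraries *Ezr* had the largest change, -0.27 (SE 0.18, adjusted p = 0.416), with 86, 130, 79 and 75 reads. An exon of *Sytl3* lies opposite 79.8% of its last 500 bases. The log2 fold change of *Rdx* was -0.27 on chromosome 9, where the median was -0.37, and that of *Msn* was 0.02. *Rdx* changed more than *Ezr* without scrambled 2 (-0.34 against -0.13) or knockdown 1 (-0.22 against -0.19). It changed less than *Ezr* without scrambled 1 (-0.20 against -0.40) or knockdown 2 (-0.31 against -0.35). *Msn* took 74.2% and 76.3% of ERM reads in the scrambled libraries, against 79.8% and 77.9%.

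Of the crosslinkers and bundlers, none of the 5 tested was called, and 2 had an unadjusted p under 0.05 in opposite directions. *Fscn1*, which bundles filaments in filopodia, had 451, 682, 729 and 576 reads and a log2 fold change of 0.42 (SE 0.14, unadjusted p = 0.00812, adjusted p = 0.0873 in edgeR), where the chromosome median was 0.23. *Actn1*, the α-actinin of stress fibres and adhesions, had 406, 541, 354 and 288 reads and a log2 fold change of -0.35 (SE 0.14, unadjusted p = 0.0196, adjusted p = 0.140 in edgeR), where the chromosome median was -0.03. The groups did not overlap for either gene. The filamins *Flna* and *Flnc* had log2 fold changes of -0.16 and 0.17, and *Lima1*, a LIM protein that stabilizes filaments, had -0.15. *Actn4* had 5, 10, 11 and 6 reads and was not tested, and 63.2% of its last 500 bases lie opposite an exon of *Capn12*.

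At focal adhesions, where filaments are coupled to integrins, both genes tested were below 0 and neither was called. *Zyx*, a LIM protein of adhesions and stress fibres, had 417, 587, 387 and 300 reads, or 466 ± 40.5 (SD, n = 2) and 368 ± 24.7 (SD, n = 2) normalized counts. Its log2 fold change was -0.34 (SE 0.14, unadjusted p = 0.0270, adjusted p = 0.165 in edgeR) on chromosome 6, where the median was 0.28. It was the only member that was called when the chromosome medians were removed and not otherwise, at -0.62 (adjusted p = 0.0170). An exon of *Epha1* lies opposite 54.8% of its last 500 bases. *Tln1*, which links integrins to actin, had 78, 113, 78 and 65 reads and a log2 fold change of -0.21. *Vcl*, which encodes vinculin, had 1, 3, 3 and 0 reads and was not tested, and all of its last 500 bases lie opposite an exon of *Ap3m1*.

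**Figure D5:**
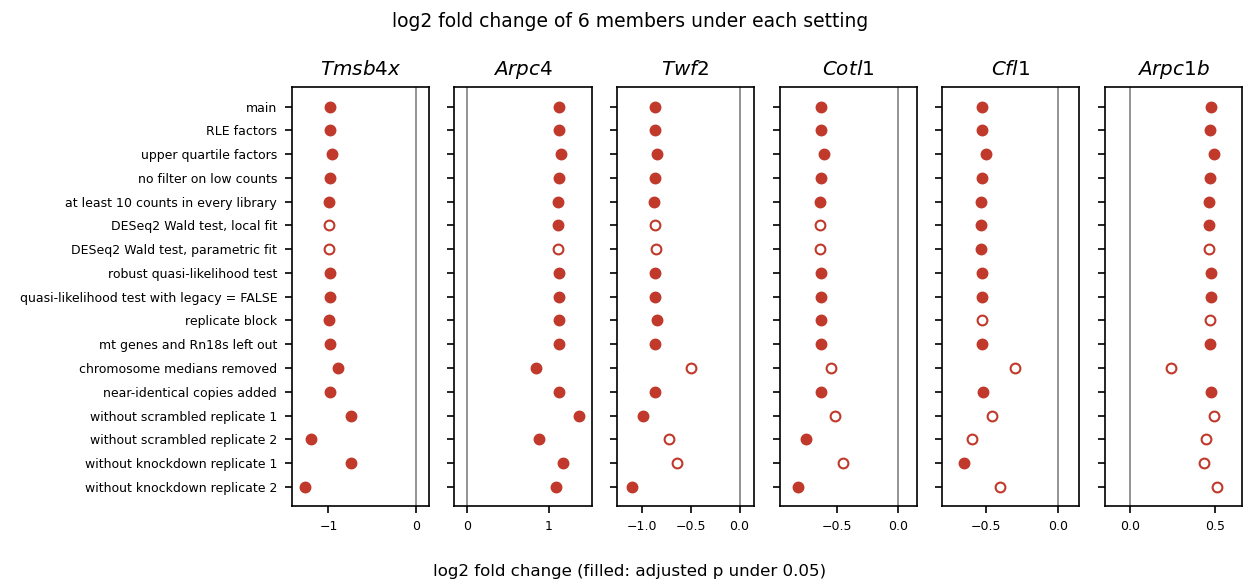
Log2 fold change (x axis) of the 6 members with an adjusted p under 0.05 under each setting (y axis), filled where the adjusted p was under 0.05. *Tmsb4x* stays filled without any 1 library and with the chromosome medians removed and is open in both DESeq2 fits, and *Arpc1b* is open without each library.

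Because hnRNP L binds CA repeats in RNA, the canonical transcript of each member in GENCODE vM39 was searched on its own strand for CACACACA. It was found in 5 of the 41, in 7 runs, among them none of the 5 members called. Of the canonical transcripts of all genes tested, 19.3% held it, at a median length of 3389 bases against 2928 for the members and 1658 for the 5 members called. All 7 runs are shown, each within 30 bases of transcript, 5′ to 3′, with the run in capitals.
Pfn1, first run: ttctttccataCACACACAtaccattattt
Pfn1, second run: ctcttacacccCACACACAaagtcaagttt
Enah: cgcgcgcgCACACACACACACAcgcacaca
Flna: catggtgatggCACACACAccattacctat
Actn1: acgtggatgtgCACACACAtgctcgcacac
Lima1, first run: ggaattagagaCACACACAacacatttagg
Lima1, second run: aggccacgggtCACACACAggccacgcgcg
The windows span bases 639 to 668 and 2245 to 2274 of the 2658 of *Pfn1* (chr11:70540882-70545976), 4565 to 4594 of the 12591 of *Enah* (chr1:181723949-181847856), 3754 to 3783 of the 10089 of *Flna* (chrX:73265347-73293456), 5060 to 5089 of the 6224 of *Actn1* (chr12:80212233-80307547) and 2785 to 2814 and 3597 to 3626 of the 4113 of *Lima1* (chr15:99676347-99773706). The run of *Flna* is in the coding sequence and the other 6 are in the 3′ UTR. The run of *Enah* was the longest, at 14 bases. A match describes the letters in 1 transcript, introns were not searched, and the 5 genes with a run had log2 fold changes from -0.35 to 0.17.

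A further list of 100 actin and adhesion genes, also chosen with earlier results of these data known, was read in the same fit for context. Of these, 72 were tested and 5 were called (6.94%), all lower in knockdown (with upper quartile factors, the robust test, at least 10 counts in every library or without knockdown 2, 1 or 2 were higher), where 5.55% of all genes tested, and 7.93% of those above a mean of 50 normalized counts, were called. An unadjusted p under 0.05 was reached by 23 of the 72 (31.9%), 6 higher and 17 lower, against 21.8% of all genes. Of the 5 called, 4 are described. *Rhob*, a small GTPase of endosomes and stress fibres, was read 363 and 461 times in the scrambled libraries (1 and 2) and 211 and 178 times in the knockdown libraries. *Rhob* fell by 0.88 log2 units (SE 0.14, adjusted p = 0.00104), on a chromosome with a median of -0.03, with an adjusted p of at most 0.0204 when each library was left out (1 library against 2). *Actn3*, the α-actinin of fast muscle fibres, had 25 and 56 reads under scrambled shRNA against 14 and 6 after knockdown, and fell by 1.79 (SE 0.40, adjusted p = 0.0114). Without scrambled 2 or knockdown 2 its change was -1.29 or -1.41 (adjusted p = 0.169 or 0.0774), and without scrambled 1 or knockdown 1 it was -2.12 or -2.39 (adjusted p = 2.8e-05 or 0.0376). *Fermt2*, the integrin activator kindlin-2, had 193 and 213 reads under scrambled shRNA against 104 and 98 after knockdown, and fell by 0.80 (SE 0.16, adjusted p = 0.00593, and 0.0803 without knockdown 1). *Gmfb*, which encodes a factor that takes Arp2/3 branches apart, had 265, 321, 189 and 139 reads and fell by 0.64 (adjusted p = 0.0163). *Fermt2* and *Gmfb* lie on chromosome 14, where the median was -0.36, and neither was called with the chromosome medians removed, at -0.44 and -0.28. Without scrambled 1, knockdown 1 or knockdown 2 the adjusted p of *Gmfb* was 0.0520, 0.0530 or 0.102. In DESeq2, *Actn3* missed the test with the local fit (adjusted p = 0.0521), and *Rhob* alone of these 4 passed it with the parametric fit.

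By class, 1 of 15 relatives and activators of Arp2/3, 1 of 10 small GTPases and their effectors, 2 of 7 other crosslinkers and 1 of 21 focal adhesion proteins fell. None was called among 4 cofilin kinases and phosphatases, 8 formins and Ena/VASP relatives, 4 other severing, capping and pointed-end proteins, and the 3 genes of SRF and its cofactors. At an unadjusted p under 0.05 in edgeR, the first 4 classes held 5, 4, 4 and 6 genes and the last 4 held 0, 3, 1 and 0. The median log2 fold change of the 72 genes was -0.04.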

How the data were processed

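RNA of 2 scrambled and 2 knockdown C2C12 cultures was sequenced as direct RNA, in which 1 read is 1 molecule. The authors mapped the reads to GRCm39 with minimap2 2.17 and deposited whole counts per gene from HTSeq 0.9.1. The annotation release and strand setting are not given in the sources used here. Of the 56748 gene IDs, 56017 matched GENCODE vM39, which gave symbols, positions and transcripts. Reads not assigned to a gene (42.2% to 43.5% of each library) were left out.

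The groups were compared by edgeR 4.0.16 under R 4.3.3, using TMM factors, filterByExpr and the quasi-likelihood test, with Benjamini-Hochberg adjustment over 8670 genes. Normalized counts are counts divided by the library size times its TMM factor and scaled to the mean of that product. Counts gave a limit of 1.79 to 2.44 CPM for a count of 0 (3 counts). Chi-square per gene between the libraries was 2.92 within scrambled and 3.30 within knockdown. The labels give the replicate number as the batch, so the numbers pair the libraries. Deviations of same-numbered libraries had a correlation of 0.0083 over 4501 genes, and the block was an alternative, as were other factors, filters, thresholds, DESeq2 1.42.0, removal of chromosome medians, near-identical copies and each library left out. Members' last 800 bases were mapped to the genome with minimap2 2.31-r1302.

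Counts in each library are given for members with an unadjusted or adjusted p under 0.05 and for the cofilin, profilin, β-thymosin, Arpc1 and Arpc5 sets. Of other members, the largest change in each role is given, and of the further list, the genes called, of which 1 is not reported here. Members and lists were chosen with earlier results of these data known.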

Additional observations from a re-analysis of the deposited data

How the results depend on the processing

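The number of members called was 5 and stayed between 4 and 6 with RLE or upper quartile factors, other filters, the robust test, legacy = FALSE, mitochondrially encoded genes and *Rn18s* left out, near-identical copies added, other thresholds and the replicate block, which gave 4 by losing *Cfl1*. It was 2 in DESeq2 with the local fit (*Cfl1* and *Arpc4*), 1 with the parametric fit (*Cfl1*), 3 with the chromosome medians removed, and 3 to 4 when each library was left out, 3 of them without scrambled 2 or knockdown 1. The replicate block changed the test result of *Cfl1* and *Arpc1b* (adjusted p = 0.0750 and 0.0854) and of no other member, and called 484 genes in all, against 481. Of the 5 members called, none changed sign under any alternative. Of the further list, 5 genes were called, 3 in DESeq2 with the local fit, 1 with the parametric fit, and 3 to 7 when each library was left out. All were lower, except 2 of 7 with upper quartile factors, 1 of 7 with the robust test, 1 of 5 with at least 10 counts in every library and 1 of 4 without knockdown 2. Over all genes, 228 were called in DESeq2 with the local fit, 115 with the parametric fit, 287 with the chromosome medians removed and 194 without knockdown 1. *Hnrnpl* had -0.78 in DESeq2 with the parametric fit (adjusted p = 0.0567) and -1.03 to -0.48 without each library. The median of the members was -0.030 with upper quartile factors and -0.088 to -0.00087 without each library. The cause of these differences was not tested.

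The log2 fold change of 14 members, none of them called, changed sign under an alternative. With the chromosome medians removed it was -0.18 for *Wdr1*, 0.10 for *Twf1*, -0.055 for *Actr3*, -0.027 for *Arpc5*, -0.032 for *Capza2*, 0.019 for *Vasp*, 0.10 for *Rdx* and -0.10 for *Flnc*, and with upper quartile factors 0.014 for *Twf1*. When each library was left out it ran from -0.081 to 0.31 for *Cfl2*, -0.0056 to 0.11 for *Wdr1*, -0.17 to 0.15 for *Twf1*, -0.27 to 0.031 for *Arpc5l*, -0.10 to 0.47 for *Capza1*, -0.48 to 0.24 for *Enah*, -0.047 to 0.089 for *Msn*, -0.058 to 0.39 for *Flnc* and -0.52 to 0.16 for *Lima1*. *Zyx* passed the test with the chromosome medians removed, *Diaph1* without scrambled 1 and *Capg* with upper quartile factors and without a filter. Only *Actr3* has an annotated near-identical copy, and 5 other members have copies with no gene ID, whose reads could not be added. Genes with few reads limit this comparison: *Cap1*, *Actn4* and *Vcl* could not be tested.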
